A study of Mus musculus with 8 samples.

Results

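Signalling by the transforming growth factor beta (Tgf-beta) superfamily was described from 41 genes coding for its Bmp, Gdf, Nodal, Lefty, activin and Tgf-beta ligands, their receptors, the Smads, 4 secreted antagonists and 3 Id genes, out of 20660 named genes on the array. Membership followed a list of gene names, and every non-control probe whose RefSeq accession belonged to a listed gene was taken, which gave 56 of 55681 probes. The RNA came from 8 whole embryos taken at E8.5 (embryonic day 8.5), 1 embryo to each Agilent 1-colour array. Of these, 4 embryos were sired by fathers homozygous for the Eed l7Rn5-1989SB allele (Eed hypo/hypo, "HOM father") and 4 by heterozygous fathers (Eed hypo/wt, "HET father"). All 8 embryos were themselves Eed hypo/wt, all mothers were wild type on the same C57bl6/129 background, and each group held 2 females and 2 males. The allele is hypomorphic in every cell that uses Eed, which codes for a core part of the histone methyltransferase complex PRC2, so embryos of both groups carried a copy of it and no group was free of it. The comparison addresses whether the father's germline genotype alters gene expression in offspring of 1 genotype. The methods describe fewer sires than embryos, so some embryos shared a father, which the labels do not trace, and the p-values measure only the spread between these embryos.

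Tgf-beta superfamily ligands are secreted dimers that bring together type I and type II receptor kinases on the cell surface. Activated type I receptors phosphorylate receptor Smads, which join Smad4 and enter the nucleus, with Smad1 and Smad5 acting for Bmps and Smad2 and Smad3 for Nodal, activins and Tgf-betas. Noggin and Chordin bind Bmps outside the cell, and Smad6 and Smad7 inhibit the pathway inside it. In the early mouse embryo Bmp4 is required for mesoderm, allantois and germ cells, while Nodal and the Lefty proteins pattern the axes, and the Id genes are classical targets of Bmp signalling.

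Values below are log2 signals set against the 75th percentile of the same array, which is therefore 0, and a change is the mean of the HOM father embryos minus the mean of the HET father embryos. Between 51.9% and 60.8% of spots were well above background on an array. The 4 arrays of each group lay together on 1 slide with its own scan, so that slide and father cannot be told apart in any result. Of 47 marker genes of tissues that a dissected E8.5 embryo can hold, 43 were tested, and every listed gene of somites, heart, neural tissue, gut, yolk sac and primitive erythroid cells was among them. The allantois marker Tbx4 was at -0.68 in HOM father replicate 1 and from 2.12 to 2.42 in the other 7 embryos. On the same marker list the dim Hoxa13 was also lowest there, at -5.45. Postn (1.61) and Wnt6 (2.24) lay there within the range of the other embryos, so the list as a whole was not low. Ascl2, a trophoblast gene, was at 1.67 in HOM father replicate 2 and from -1.98 to -1.29 in the others. Results were therefore also computed without these embryos.

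Between the offspring of HOM and HET fathers, 9 members passed the test. Expression of Gdf3, Smad7, Nog and Chrd rose in the embryos of HOM fathers, and that of Bmp4, Tgfb1, Acvr2b and Id3 fell, as did the leading probe of Bmp1, a gene whose probes disagreed. The changes ran from -0.47 to 0.74 on the log2 scale, and no member reached the 2-fold change that the study asked for on its arrays. For all 9 genes the values of the 4 HOM father embryos did not overlap with those of the 4 HET father embryos. In bulk samples, fewer cells of a type and less RNA per cell cannot be told apart.

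The test was limma's moderated test over 29718 probes, called at a Benjamini-Hochberg adjusted p below 0.05, with each gene read from its tested probe of highest mean signal. In all, 39 of the 41 genes had a tested probe. The 4 members that rose were 10.3% of these 39, beside 12.3% of all tested probes, and the 5 that fell were 12.8%, beside 8.69% of all tested probes. At the study's stricter limits for its arrays, an adjusted p below 0.01 and at least a 2-fold change, 0 members passed, beside 1.27% of all tested probes. By limma 12 of the 39 had an unadjusted p below 0.05. The median change of the 39 members was -0.01, and that of all tested probes was -0.02. All HOM father embryos lay above all HET father embryos for 4 members (10.3%, beside 14.1% of all tested probes) and below them for 8 (20.5%, beside 13.0%), the 3 uncalled genes among these being Smad3, Smad4 and Smad5. The members were thus called at shares near those of the array as a whole.

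Centring the arrays on their medians in place of the 75th percentile shifted the median over all tested probes from -0.02 to -0.21 and turned the calls among members from 4 higher and 5 lower to 3 higher (7.69%) and 13 lower (33.3%). Of all tested probes 7.87% were called higher and 34.8% lower under that scaling, so that the members' shares were near those of the array there too. With HOM father replicates 1 and 2 both left out, 4 members were called (Gdf3, Chrd, Bmp1 and Tgfb1), all of them among the 9. Of these 2 were higher (5.13%) and 2 lower (5.13%), beside 8.50% and 3.97% of all tested probes in that setting. HOM father replicates 1 and 2 were the 2 females of their group, so 2 males were set against 2 females and 2 males, without sex as a covariate. Tissue, sex and the number of embryos changed together there and cannot be told apart in a lost call.

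**Figure D1:**
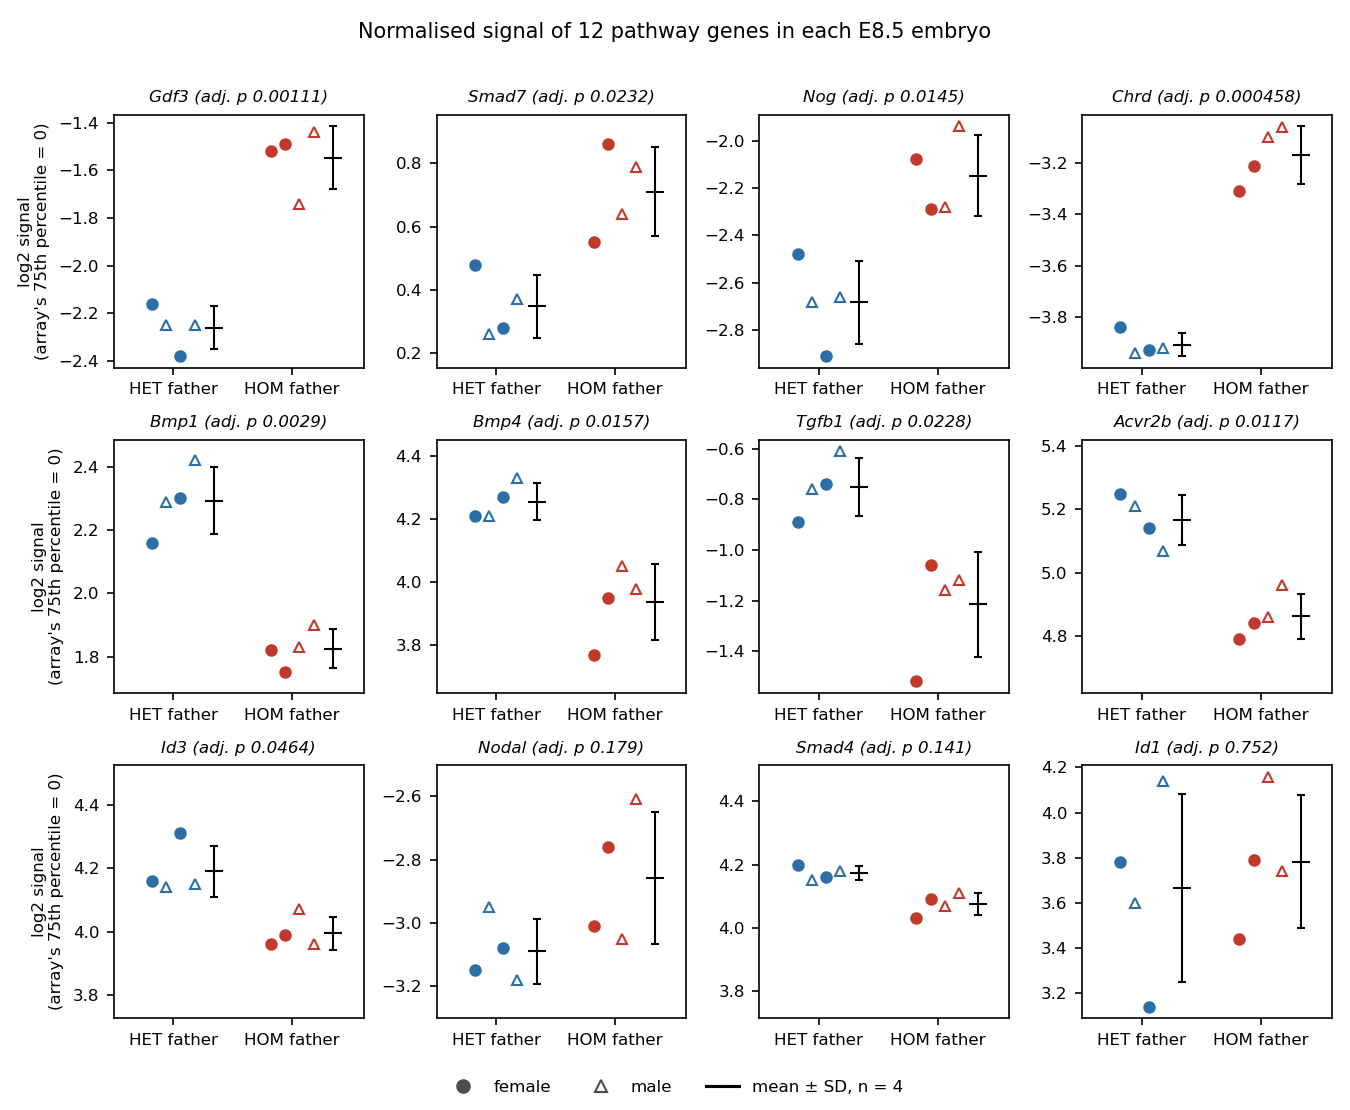
Log2 signal (array's 75th percentile = 0) of the 9 called members and of Nodal, Smad4 and Id1 in each embryo, with females as filled circles, males as open triangles and bars giving the mean ± SD of 4 embryos. The groups do not overlap for the 9 called members or for Smad4, and they overlap for Nodal and Id1.

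The promoters of 4 members that stand for the ligand, the antagonist and the target classes are given here, because Chrd rose while Bmp4 and Id3 fell and Id2 did not pass the test. Each is the run of 250 bases before the annotated start, 5′ to 3′ on the gene's strand, from the RefSeq promoter table of mouse build GRCm38.p6. Capitals mark GGCGCC, a GC-rich element bound by Smads of the Bmp branch, which reads the same on both strands. Chrd lies on the plus strand at chr16:20732877-20733126, Bmp4 on the minus strand at chr14:46390670-46390919, Id3 on the plus strand at chr4:136143572-136143821 and Id2 on the minus strand at chr12:25096093-25096342.
Chrd: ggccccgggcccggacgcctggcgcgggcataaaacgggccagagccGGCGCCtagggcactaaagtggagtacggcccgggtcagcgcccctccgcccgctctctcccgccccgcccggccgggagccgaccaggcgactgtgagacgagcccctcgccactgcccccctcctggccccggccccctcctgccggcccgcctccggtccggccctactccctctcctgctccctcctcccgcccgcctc
Bmp4: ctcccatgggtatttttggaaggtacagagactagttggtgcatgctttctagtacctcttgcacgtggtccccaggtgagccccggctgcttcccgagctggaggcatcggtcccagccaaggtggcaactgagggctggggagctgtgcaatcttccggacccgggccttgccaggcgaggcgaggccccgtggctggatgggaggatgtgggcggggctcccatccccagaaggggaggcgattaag
Id3: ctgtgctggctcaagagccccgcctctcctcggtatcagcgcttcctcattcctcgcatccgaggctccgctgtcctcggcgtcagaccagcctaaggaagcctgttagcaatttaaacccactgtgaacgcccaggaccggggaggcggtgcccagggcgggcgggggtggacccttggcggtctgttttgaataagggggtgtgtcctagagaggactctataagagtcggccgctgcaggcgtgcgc
Id2: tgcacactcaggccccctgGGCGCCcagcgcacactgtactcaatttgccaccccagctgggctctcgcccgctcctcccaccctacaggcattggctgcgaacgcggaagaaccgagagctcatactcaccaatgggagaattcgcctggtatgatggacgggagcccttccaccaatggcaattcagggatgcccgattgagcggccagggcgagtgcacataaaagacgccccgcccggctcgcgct

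GGCGCC stood once in the windows of Chrd and Id2 and in neither of the windows of Bmp4 and Id3. It was found in 7 of the 33 windows listed for 27 of the members and in 9.59% of all 32851 windows of this length. The palindrome GTCTAGAC, to which Smad3 and Smad4 bind, was in 0 of the 33 member windows and in 0.167% of all windows. CpG dinucleotides numbered 28 in the Chrd window, 11 in that of Bmp4 and 18 in each of those of Id3 and Id2. The median was 21 over the members' windows and 6 over all windows. These are counts of letters in a short window and bear on no factor's binding.

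Among the Bmp and Gdf ligands, Gdf3 rose and Bmp4 fell. Gdf3 codes for a ligand that can signal through the Nodal receptors and is expressed in pluripotent cells. Its signal was -1.52, -1.49, -1.74 and -1.44 in HOM father replicates 1 to 4 and -2.16, -2.25, -2.38 and -2.25 in HET father replicates 1 to 4. Every HOM father embryo lay above every HET father embryo, with a change of 0.71 ± 0.08 (SE, n = 4 per group; 1.64-fold; limma adjusted p = 0.00111). A second Gdf3 probe was well above background on 1 of 8 arrays and was not tested.

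Bmp4 codes for the ligand needed for mesoderm and allantois. Its signal was 3.77, 3.95, 4.05 and 3.98 in the HOM father embryos and 4.21, 4.21, 4.27 and 4.33 in the HET father embryos. The lowest value was that of HOM father replicate 1, the embryo with little Tbx4 signal, and the groups did not overlap. The change was -0.32 ± 0.07 (1.25-fold lower; limma adjusted p = 0.0157). It was -0.26 without that embryo (limma adjusted p = 0.0254) and -0.24 without both embryos named above, where the call was lost (limma adjusted p = 0.0616). A second Bmp4 probe stood above background on no array.

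Bmp1 codes for a metalloprotease that cleaves Chordin and procollagens, and is no ligand despite its name. Its probes disagreed. The leading probe read 1.82, 1.75, 1.83 and 1.90 in the HOM father embryos and 2.16, 2.29, 2.30 and 2.42 in the HET father embryos, a change of -0.47 ± 0.07 (limma adjusted p = 0.0029). A second probe with the same transcript accession read 0.83, 1.39, 1.11 and 1.11 against 0.34, 0.37, 0.43 and 0.54, a change of 0.69 ± 0.11 in the other direction (limma adjusted p = 0.00526). The third probe, of a non-coding transcript of the gene, changed by 0.13 ± 0.10 (limma adjusted p = 0.427). Both of the first 2 probes separated the groups completely and in opposite directions, so that the gene has no single direction, and the mean of its probes changed by 0.12 (limma adjusted p = 0.297).

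The other Bmp and Gdf ligands did not pass the test. Their changes ran from -0.23 for Bmp2 to 0.06 for Bmp7, with Bmp5, Bmp6, Gdf1, Gdf6 and Gdf11 between them and adjusted p-values from 0.19 to 0.988. The 95% intervals of these 7 genes lay within -0.48 and 0.38, so that larger shifts fall outside them. Bmp2, which acts beside Bmp4 in the heart and amnion, was at 0.32 in HOM father replicate 1 and between 0.65 and 0.95 in the other 7 embryos.

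Among the ligands of the Nodal and Tgf-beta branches, Tgfb1 fell. Tgfb1 codes for the ligand best known from blood vessel and immune development, and its protein is held latent in the matrix. Its signal was -1.52, -1.06, -1.16 and -1.12 in the HOM father embryos and -0.89, -0.76, -0.74 and -0.61 in the HET father embryos. HOM father replicate 1 was again the lowest of all 8. The change was -0.46 ± 0.11 (1.38-fold lower; limma adjusted p = 0.0228). It was -0.36 without that embryo, still past the threshold, and the call was lost when HET father replicate 2, 3 or 4 was left out (limma adjusted p of 0.0526, 0.0576 and 0.0594).

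Nodal, the ligand that sets up the primitive streak and later left-right asymmetry, read -3.01, -2.76, -3.05 and -2.61 in the HOM father embryos and -3.15, -2.95, -3.08 and -3.18 in the HET father embryos. The groups overlapped. The difference of 0.23 had a 95% interval from -0.02 to 0.49 and did not pass the test (limma adjusted p = 0.179). Lefty2, a secreted Nodal inhibitor, spread widely among the HOM father embryos, at -3.45, -1.50, -3.17 and -2.20, and lay between -3.04 and -2.48 in the HET father embryos. Its interval, from -0.71 to 1.20, leaves room for a change of over 2-fold, and the highest value came from HOM father replicate 2, the embryo with high Ascl2 signal.

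Lefty1 was well above background on 5 of 8 arrays, with a difference of -0.13. Tgfb2 and Tgfb3 differed by -0.18 and -0.10 and did not pass the test either. Inhba and Inhbb, which code for the activin beta subunits, were not tested. The Inhba probe was well above background on no HOM father array and on 2 HET father arrays, and the Inhbb probe on none of the 8.

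Of the 9 receptor genes, Acvr2b fell and 8 did not pass the test. Acvr2b codes for a type II receptor that is used by activins, Nodal and several Gdfs and is needed for left-right asymmetry. It read 4.79, 4.84, 4.86 and 4.96 in the HOM father embryos and 5.25, 5.21, 5.14 and 5.07 in the HET father embryos. The groups were separated by the gap between 4.96 and 5.07, with an SD of 0.07 in the HOM father embryos and 0.08 in the HET father embryos. The change was -0.31 ± 0.06 (1.24-fold lower; limma adjusted p = 0.0117). Without both HOM father replicates 1 and 2 the change was -0.26 and the call was lost (limma adjusted p = 0.081).

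Bmpr2, the type II receptor of the Bmps, had the largest difference in the class, -0.45, but its groups overlapped. It read -0.46, -0.76, -0.42 and -0.01 in the HOM father embryos and -0.20, 0.11, -0.10 and 0.34 in the HET father embryos (limma adjusted p = 0.114). In both groups the females lay below the males, with means of -0.38 over females and 0.01 over males. With sex as a covariate the difference passed the threshold (limma adjusted p = 0.0395), as it did without HOM father replicate 4 (limma adjusted p = 0.0485).

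Bmpr1a and Tgfbr1, type I receptors for Bmps and Tgf-betas, differed by 0.05 and 0.03, with 95% intervals that ended at 0.16 and 0.17. Bmpr1b, Acvr1, Acvr1b, Acvr2a and Tgfbr2 differed by -0.06 to 0.07 on their leading probes. A second Acvr1 probe differed by -0.24 (limma adjusted p = 0.0598), beside -0.06 on the first.

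**Figure D2:**
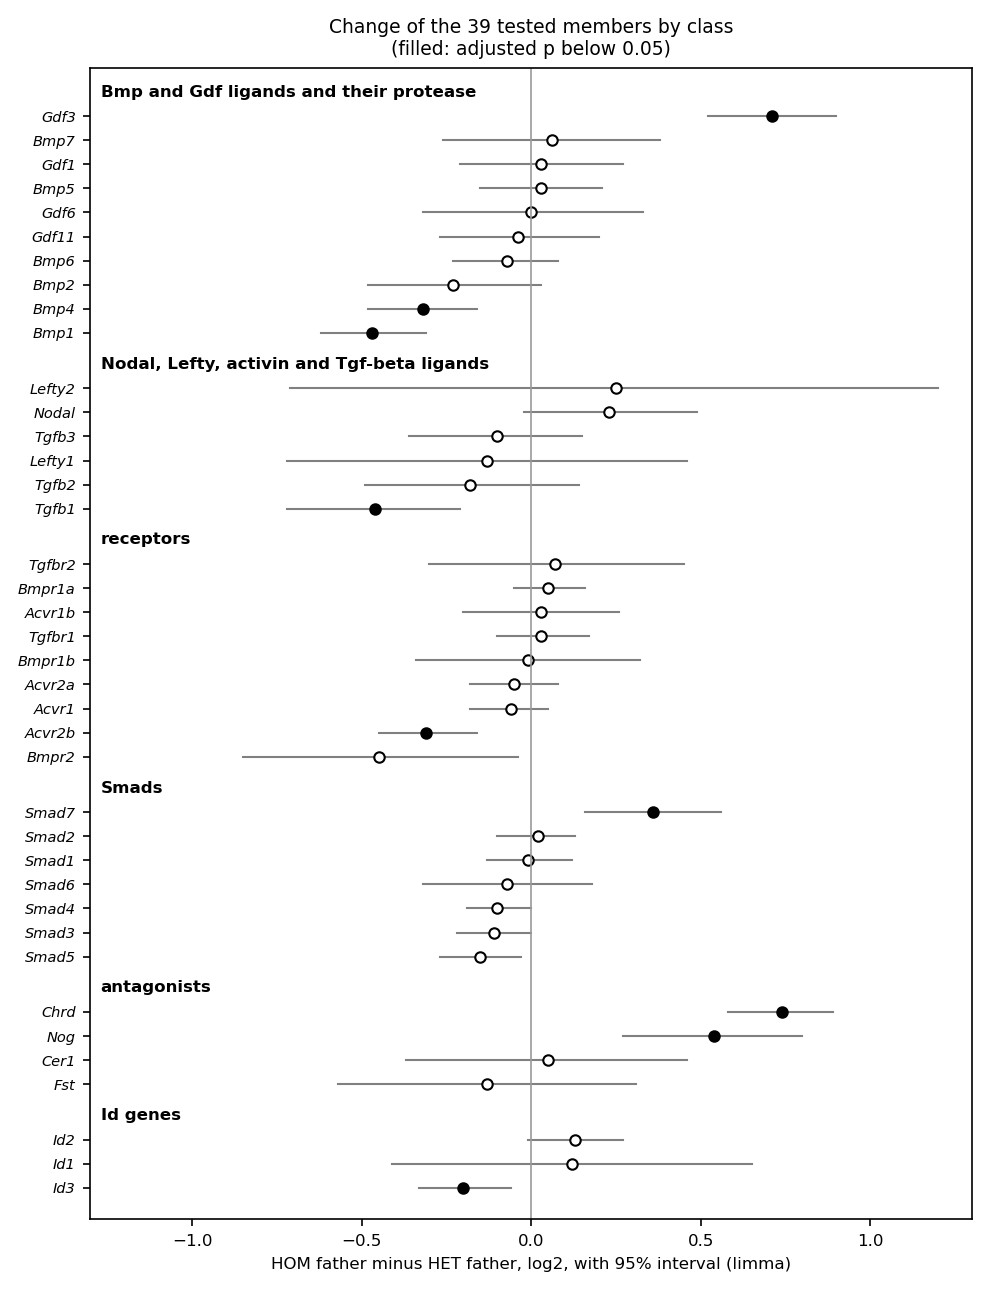
Change between the offspring of HOM and HET fathers on the log2 scale for the 39 tested members, ordered within classes, with limma's 95% interval and filled points for an adjusted p below 0.05. Calls lie on both sides of 0 among the ligands, and 29 of the 39 genes changed by less than 0.25 in either direction.

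Among the Smads, the inhibitory Smad7 rose and the receptor Smads and Smad4 did not pass the test. Smad7 blocks activated type I receptors and is itself a target of the pathway. It read 0.55, 0.86, 0.64 and 0.79 in the HOM father embryos and 0.48, 0.26, 0.28 and 0.37 in the HET father embryos. The groups were separated only by the gap between 0.48 and 0.55. The change was 0.36 ± 0.09 (1.28-fold; limma adjusted p = 0.0232). The call was lost without HET father replicate 2, 3 or 4 or HOM father replicate 4 (limma adjusted p from 0.0518 to 0.0643), without both embryos that stood apart (limma adjusted p = 0.0535), and under median scaling, where the change was 0.17 (limma adjusted p = 0.143). It was also lost with no filter on signal, with normexp background correction and with the replicate number as a block.

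Smad4, the partner shared by both branches, read 4.03, 4.09, 4.07 and 4.11 in the HOM father embryos and 4.20, 4.15, 4.16 and 4.18 in the HET father embryos. Each HOM father embryo was below each HET father embryo, although the difference of -0.10 was small and did not pass the test (limma adjusted p = 0.141). Smad3 and Smad5 followed the same order, with differences of -0.11 (limma adjusted p = 0.154) and -0.15 (limma adjusted p = 0.0733). Further probes of Smad3, Smad4 and Smad5 differed by 0.12, -0.19 and 0.01, and their groups overlapped. Smad1 and Smad2 differed by -0.01 and 0.02, with 95% intervals that ended at 0.12 and 0.13, and the inhibitory Smad6 differed by -0.07.

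Of the 4 antagonists on the list, Chrd and Nog rose. Chrd codes for Chordin, a Bmp-binding protein of the node and notochord. Its signal was -3.31, -3.21, -3.10 and -3.06 in the HOM father embryos and -3.84, -3.94, -3.93 and -3.92 in the HET father embryos. The HET father embryos lay within 0.1 of each other and all HOM father embryos were well above them, a change of 0.74 ± 0.07 (1.67-fold; limma adjusted p = 0.000458). This was the largest change among the 39 members and stayed past the threshold under each of the 20 alternatives, from 0.35 to 0.83.

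Nog codes for Noggin, which also binds Bmps and is made in the notochord and dorsal neural tube. It read -2.08, -2.29, -2.28 and -1.94 in the HOM father embryos and -2.48, -2.68, -2.91 and -2.66 in the HET father embryos. The groups did not overlap, and the change was 0.54 ± 0.11 (1.45-fold; limma adjusted p = 0.0145). The call was lost without both HOM father replicates 1 and 2 (limma adjusted p = 0.0608), and also with no filter on signal. Fst, which codes for the activin-binding Follistatin, and Cer1, which codes for a secreted inhibitor of Nodal and Bmps, differed by -0.13 and 0.05 with overlapping groups, and their intervals reached from -0.57 to 0.46. The antagonists are 4 genes, too few to compare the class with the array.

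The 3 Id genes code for inhibitors of basic helix-loop-helix factors, and 1 of them, Id3, passed the test. Id3 read 3.96, 3.99, 4.07 and 3.96 in the HOM father embryos and 4.16, 4.14, 4.31 and 4.15 in the HET father embryos. The groups were separated, and the change of -0.20 ± 0.06 (1.15-fold lower) passed narrowly (limma adjusted p = 0.0464). The call was lost when any 1 of the 8 embryos was left out (limma adjusted p from 0.0533 to 0.113).

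Id1 read 3.44, 3.79, 4.16 and 3.74 in the HOM father embryos and 3.78, 3.60, 3.14 and 4.14 in the HET father embryos. Its values crossed between the groups, with the widest spread of the Id genes, and the difference of 0.12 had an interval from -0.41 to 0.65 (limma adjusted p = 0.752). Id2 read 4.17, 4.06, 4.03 and 3.93 against 3.92, 3.86, 3.93 and 3.95, a difference of 0.13 that did not pass the test (limma adjusted p = 0.168). The signs of Id1 and Id2 turned to -0.07 and -0.06 under median scaling.

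**Figure D3:**
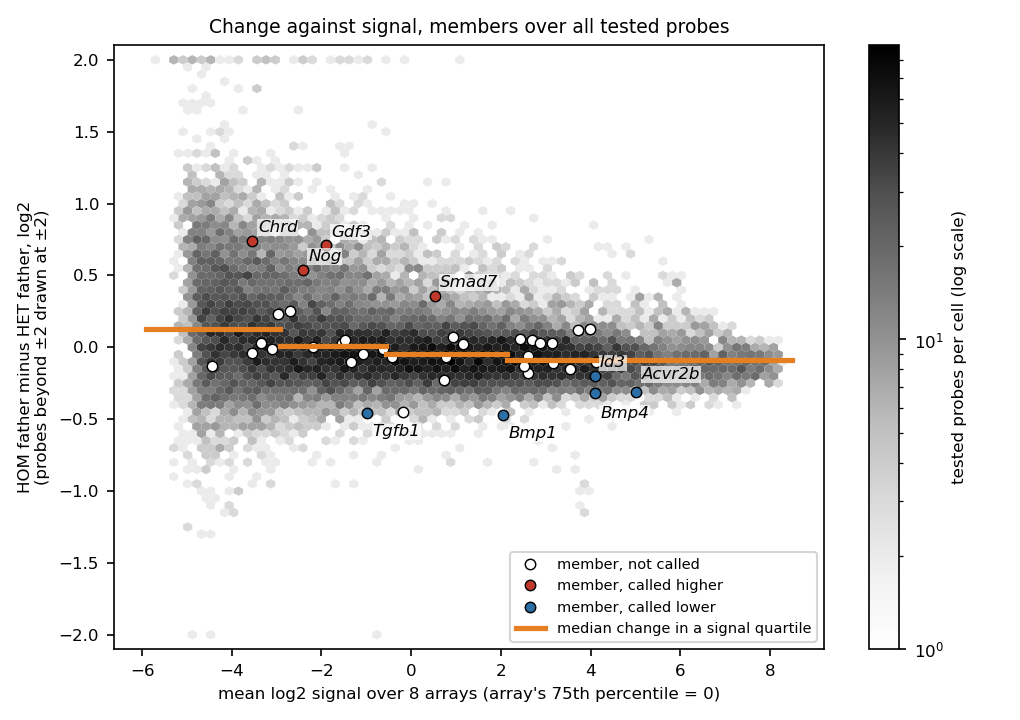
Change on the log2 scale against mean log2 signal over the 8 arrays, with all 29718 tested probes in grey, the 39 members as points and orange lines at the median change in each quartile of signal. The medians go from 0.13 in the dimmest quartile to -0.09 in the brightest. Of the 5 members that fell, 3 lie in the brightest quartile, which holds 15 of the 39 members.

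Over the whole array the direction of the calls went with signal. In the dimmest quartile of tested probes 18.4% were called higher and 1.78% lower, and in the brightest quartile 4.55% were called higher and 18.0% lower. From the dimmest to the brightest, the quartiles held 6, 10, 8 and 15 of the members. Of the members that rose, Chrd lay in the dimmest quartile, Gdf3 and Nog in the next and Smad7 in the third. Of those that fell, Bmp4, Acvr2b and Id3 lay in the brightest quartile, Bmp1 in the third and Tgfb1 in the second. The part of this relation in the members' changes was not tested.

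Of 10 members with more than 1 tested probe, 3 had probes of 1 sign and 7 had probes of both signs, and Bmp1 was the 1 in which probes were called in both directions. The leading and the other probe differed by -0.18 and 0.05 for Tgfb2, by -0.05 and 0.20 for Acvr2a, by 0.03 and -0.16 for Tgfbr1 and by -0.01 and 0.14 for Smad1, none of them past the test. The 6 member probes that were not tested lay at background on most arrays.

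No member was called between female and male embryos. By limma with father as a covariate, 0 of the 39 passed an adjusted p of 0.05, beside 0.121% of all tested probes, and 3 had an unadjusted p below 0.05. Female minus male differences ran from -0.39 for Bmpr2 to 0.26 for Lefty1, and the lowest adjusted p was 0.887. A father-by-sex interaction term passed for 0 members, beside 0.0639% of all tested probes, with 0 members at an unadjusted p below 0.05. The 9 called members had the same sign in females and in males, with 2 embryos against 2 in each sex. Their groups did not overlap, so this was fixed in advance and is no separate evidence. Chrd changed by 0.62 in females and 0.85 in males, Gdf3 by 0.77 and 0.65, and Bmp4 by -0.38 and -0.26.

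Other genes of the same pathways were read from a list of 78 genes, of which 67 were tested. Of these, 6 rose (8.96%) and 2 fell (2.99%), beside 12.3% and 8.69% of all tested probes, and 0 passed the stricter limits, while 17 had an unadjusted p below 0.05 and the median change was -0.03. Bmp8a, a Bmp ligand, rose by 0.83 ± 0.07 (limma adjusted p = 0.000352), from between -2.11 and -1.83 in the HET father embryos to between -1.23 and -1.12 in the HOM father embryos. Tll1, a relative of Bmp1 that also cleaves Chordin, rose by 0.93 ± 0.14 (limma adjusted p = 0.00323), although only 2 of the 4 HET father arrays had its probe well above background.

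Tdgf1 codes for Cripto, the co-receptor of Nodal, and its leading probe rose by 0.51 ± 0.10 (limma adjusted p = 0.0108) while another differed by -0.06 (limma adjusted p = 0.661). Rgma, a Bmp co-receptor, rose by 0.38 ± 0.06 (limma adjusted p = 0.00484). Inhbe, which codes for an activin subunit of the liver, rose by 0.39 ± 0.09 (limma adjusted p = 0.0237), a call lost without HET father replicate 2 or HOM father replicate 2 or 4 (limma adjusted p from 0.0503 to 0.0625). The leading probe of Ltbp3, which codes for a protein that binds latent Tgf-beta, rose by 0.32 ± 0.08 (limma adjusted p = 0.0303), and the other differed by -0.05 (limma adjusted p = 0.681).

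Ski, a co-repressor of Smad complexes, fell by 0.32 on the log2 scale (SE 0.08; limma adjusted p = 0.0295), and the call was lost without HET father replicate 2 or 3 or HOM father replicate 2, 3 or 4 (limma adjusted p from 0.0512 to 0.0779). Msx1, a homeobox target of Bmp signalling, fell by 0.26 (SE 0.07; limma adjusted p = 0.0415), and its call was lost without any 1 of the embryos other than HOM father replicate 2 (limma adjusted p from 0.0584 to 0.0976). Median scaling gave 3 higher (4.48%) and 23 lower (34.3%) calls on this list, beside the array's 7.87% and 34.8% under that scaling.

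**Figure D4:**
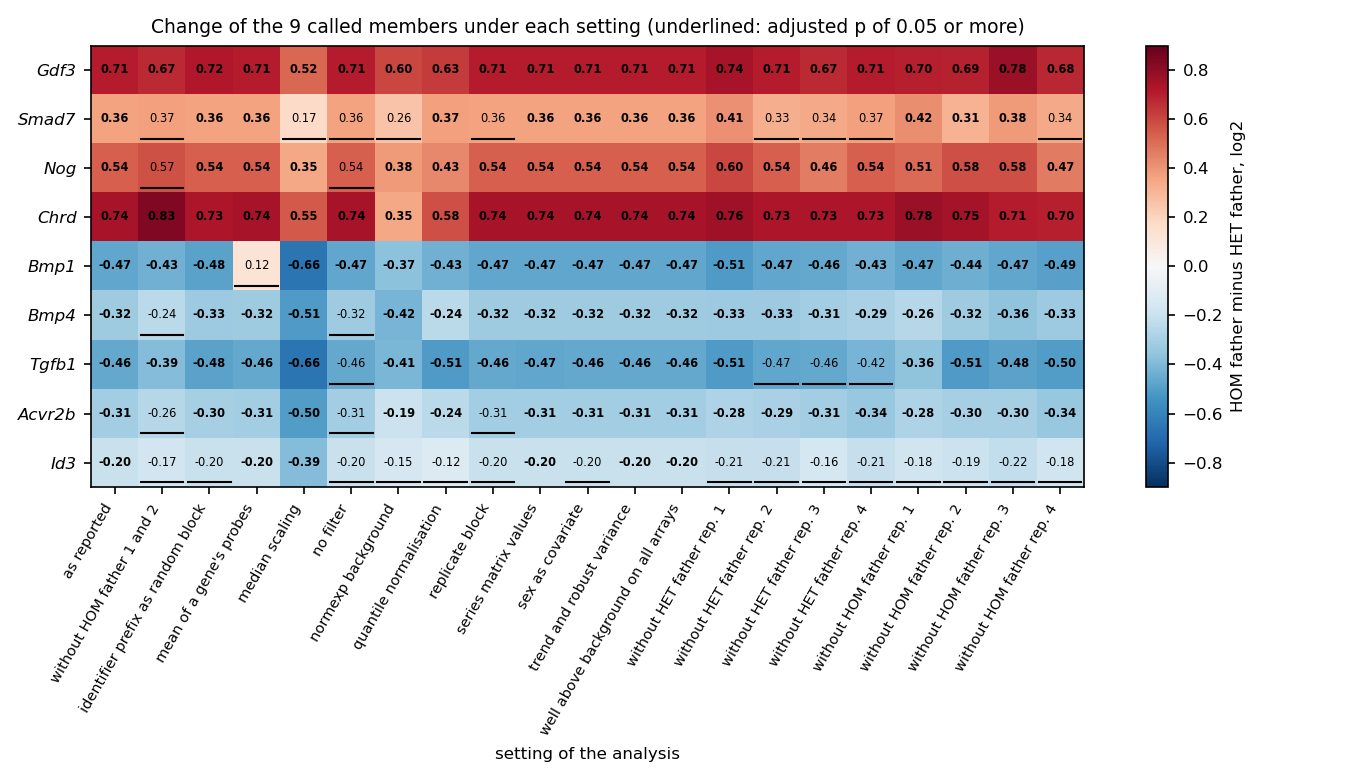
Change on the log2 scale of the 9 called members (rows) in the analysis as reported and in the 20 alternatives (columns), with values underlined where the adjusted p was 0.05 or more. Gdf3 and Chrd are past the threshold in every column, Bmp1 changes sign when its probes are averaged, and Id3 is underlined in 15 of the 20 alternatives.

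Some tissue markers were called between the groups, and their part in the members' changes was not tested. Of the 43 marker genes tested, 1 rose (Uncx) and 4 fell (Tbx6, Myl7, Apoa1 and Gcm1). Of all tested probes 12.3% were called higher and 8.69% lower. Further tested probes of Tbx6 and Gcm1 did not pass the test, and a Sox1 probe other than its leading one rose (limma adjusted p = 0.0209). The summed signal of the 3 trophoblast genes tested ran from 8.68 to 16.6 times the array's 75th percentile in the HOM father embryos and from 13.4 to 24.9 times in the HET father embryos, while the trophoblast gene Tpbpa stood above background on no array. The brightest of the 3 was Gcm1, which fell by 1.07. Prl3d1 and Ascl2 differed the other way, by 1.88 and 0.61, with overlapping groups (limma adjusted p of 0.208 and 0.612). The 6 yolk sac genes summed to between 292 and 380 times against 347 to 373 times, and the 4 primitive erythroid genes to between 608 and 780 times against 773 to 809 times. The 4 genes of allantois and amnion ran from 8.42 times in HOM father replicate 1 to 13.5 times, against 10.8 to 13.1 times. In that replicate Tbx4 was low, while Postn and Wnt6 were not. Of the 4 genes tested from the list for decidua, Prl8a2 ran from -3.99 to 4.45 over the 8 embryos without separating the groups. It was highest in HOM father replicates 3 and 2, at 4.45 and 4.14. The 4 genes summed to 31.6 and 26.3 times in these embryos and to 9.62 and 10.9 times in HOM father replicates 1 and 4. In the HET father embryos they summed to 8.55 to 13.6 times. Over the 8 embryos Cryab ran only from 2.38 to 2.73, Hand2 from 1.01 to 1.67 and Des from -2.03 to -1.43. Whether the signal of these 3 genes came from maternal cells was not tested. HOM father replicate 3 was kept where replicates 1 and 2 were both left out. The 3 genes listed for maternal blood, which embryonic red cells also express, summed to between 91.0 and 131 times in the HOM father embryos and between 134 and 142 times in the HET father embryos.

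**Figure D5:**
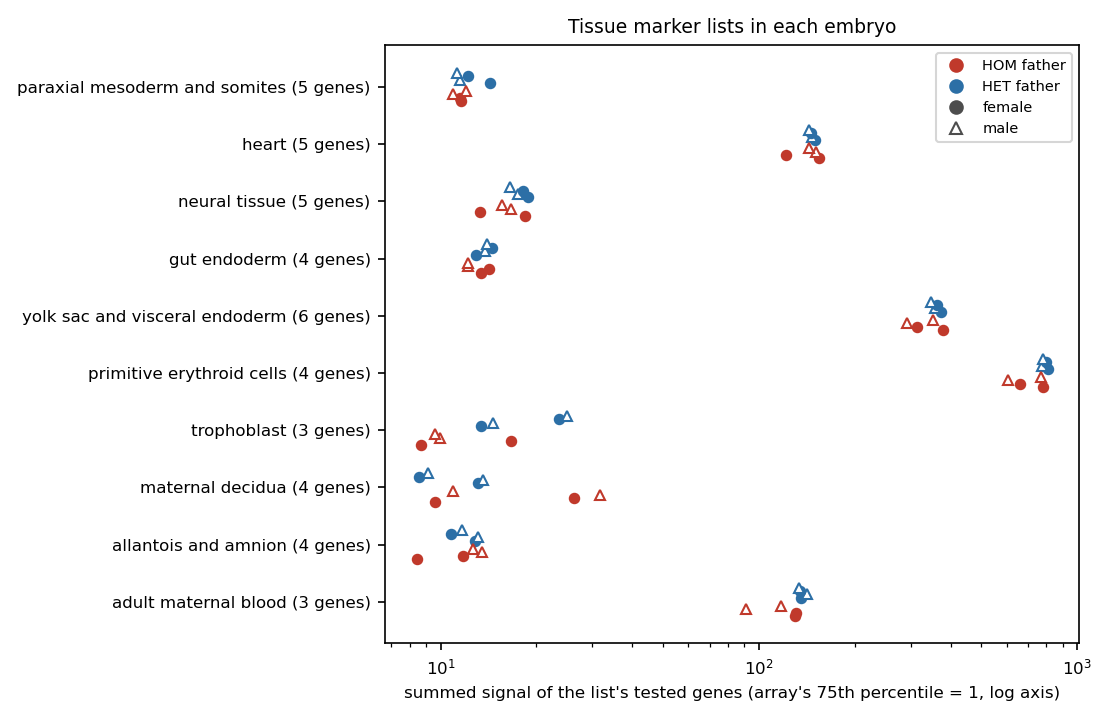
Summed linear signal of each tissue marker list (array's 75th percentile = 1, log axis) in each embryo, with HOM father embryos in red, HET father embryos in blue, females as filled circles and males as open triangles. HOM father replicate 1 is the lowest embryo for allantois and amnion at 8.42, and the groups overlap for 9 of the 10 lists.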

How the data were processed

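Stage- and size-matched E8.5 embryos were profiled on Agilent SurePrint G3 Mouse arrays, each from amplified Cy3-labelled cRNA. The deposited files hold spot intensities on a linear scale, which the authors made with Agilent Feature Extraction 11.0.1.1 (background subtraction and spatial detrending), with no normalisation between arrays. Deposited flags are other values of 0 or 1 and served as filters. The authors' table of the series held the same intensities within 0.5%. Groups, replicate numbers and sex came from the labels.

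Outlier-flagged spots were left out, and 0 spots were saturated. Processed signals were converted to log2, the array's 75th percentile was subtracted, and spots of 1 probe were averaged. Probes were tested if at least 4 of 8 arrays had them well above background and not under the array's 20th percentile, which kept 29718 of 55681 probes (53.4%). Accessions were matched without versions to RefSeq genes of GRCm38.p6 (27235 probes, 48.9%). The number of arrays limits the precision.

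limma 3.58.1 in R 4.3.3 (lmFit and eBayes, two-sided, Benjamini-Hochberg) was run over all tested probes, by father without covariates, by sex with father, and with their interaction, and was tested on simulated data. A gene was read from its tested probe of highest mean. Members called, the member of largest change in each class, and Nodal, Bmp4, Smad4 and Id1 were named with values, as were called genes of the other pathway list (up to 5 in each direction, with Ltbp3 named in addition). Genes with a called probe and probes of both directions were named with all probes. Members, lists, tests and 19 alternatives were chosen with earlier results of these data known, and 1 further alternative was added after seeing the values. The normexp alternative was listed with mean spot signals and used median ones, which the files hold. One gene of the marker lists is not reported here.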

Additional observations from a re-analysis of the deposited data

Results flagged for a closer look

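Among 78 groups of 4 embryos (39 members in each father group), 3 held 1 embryo far from the other 3, as judged by its gap relative to the group's range, and chance marks about 1 group in 20. Id3 was at 4.31 in HET father replicate 3, against 4.14 to 4.16 in the other HET father embryos. Tgfb2 was at 2.94 in the same embryo, against 2.57 to 2.62. Chrd was at -3.84 in HET father replicate 1, against -3.94 to -3.92. For Id3 and Chrd the distance of that embryo from its group was smaller than the distance between the father groups, and without it the change was -0.16 for Id3 (limma adjusted p = 0.0978) and 0.76 for Chrd. No member's father effect differed between the sexes by the interaction term.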

How the results depend on the processing

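Of 180 values of the 9 called members under 20 alternatives, 144 kept their direction and their side of the threshold, 35 kept the direction but missed it and 1 reversed. Over all probes the call count of 6243 became 12689 under median scaling, 3111 with no filter, 3487 with the replicate block and 3706 without both HOM father embryos that stood apart (chosen after seeing the data), and ran from 4157 to 6131 with 1 embryo left out. Among members the count of 9 became 16 under median scaling, 3 with no filter and 4 without both embryos, and 6 to 8 with 1 embryo left out. Among other pathway genes the count of 8 became 26 under median scaling, 4 with no filter, 5 after quantile normalisation, 5 with the replicate block and 5 without both embryos, and 4 to 9 with 1 embryo left out. Without a filter 55681 probes were tested. The rise of Ltbp3, among the other pathway genes, missed the threshold in 12 of 20 alternatives, with limma adjusted p from 0.0109 to 0.249. The counts of 0 for sex and for the interaction were 0 under every alternative run.

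Replicate numbers were not taken to pair the embryos. Same-numbered embryos had correlations of 0.189, -0.0861, -0.132 and 0.146, and the other pairs ran from -0.185 to 0.207. So few embryos cannot exclude a pairing. The paper describes the HOM and HET fathers as brothers, and the labels do not trace which embryos came from which brothers. With the replicate block 6 members were called, all among the 9. Of these 3 were higher (7.69%) and 3 lower (7.69%), beside 9.48% and 2.26% of all tested probes in that setting. Acvr2b (limma adjusted p = 0.0737), Smad7 (limma adjusted p = 0.0888) and Id3 (limma adjusted p = 0.0794) were lost. The labels' identifiers begin with a number that some embryos of a group share and whose meaning is not stated. With it as a random block (correlation 0.302) 4862 probes and 8 members were called, and Id3 was lost. The members were 4 higher (10.3%) and 4 lower (10.3%), beside 10.4% and 5.93% of all tested probes.

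Directions turned mostly for members near 0. Median scaling, which lowered all changes by about the same amount, gave Bmp5 -0.16, Bmp7 -0.13, Gdf1 -0.16, Gdf6 -0.19, Bmpr1a -0.14, Acvr1b -0.16, Tgfbr1 -0.16, Tgfbr2 -0.12, Smad2 -0.17, Cer1 -0.14, Id1 -0.07 and Id2 -0.06. Averaging a gene's probes gave Bmp1 0.12, Acvr2a 0.08, Tgfbr1 -0.06, Smad1 0.07 and Smad3 0.01. Normexp gave Gdf6 -0.09, Acvr1b -0.02, Smad2 -0.0034 and Smad4 0.06, and quantile normalisation gave Bmp5 -0.05, Gdf6 -0.10, Acvr1b -0.11 and Cer1 -0.02. Without both embryos Gdf11 was 0.09, Bmpr1b 0.06, Smad2 -0.0044, Smad6 0.01 and Fst 0.11. With 1 embryo left out, changes ran from -0.02 to 0.09 for Bmp5, from -0.05 to 0.15 for Bmp7, from -0.03 to 0.12 for Gdf1, from -0.10 to 0.10 for Gdf6, from -0.11 to 0.04 for Gdf11, from -0.33 to 0.01 for Lefty1, from -0.11 to 0.53 for Lefty2, from -0.16 to 0.0024 for Tgfb3, from -0.09 to 0.11 for Bmpr1b, from -0.02 to 0.10 for Acvr1b, from -0.04 to 0.19 for Tgfbr2, from -0.04 to 0.02 for Smad1, from -0.13 to 0.04 for Smad6, from -0.27 to 0.01 for Fst, from -0.09 to 0.19 for Cer1 and from -0.06 to 0.28 for Id1. The cause of these shifts was not tested. With 4 arrays a group and changes under 2-fold, members near the threshold depend on single embryos.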

Other observations

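Several other genes of these pathways stood apart in 1 embryo and did not pass the test between the groups. In HOM father replicate 2, the embryo with high Ascl2 signal, the germ cell and trophoblast ligand gene Bmp8b was at -1.18, against -3.98 to -3.81 in the other 7 embryos. The Nodal co-receptor gene Cfc1 was at 1.88 there, against 0.36 to 1.17, and the transcription factor gene Gata2 at 1.13, against -0.43 to 0.30. The Bmp antagonist gene Sostdc1 was at -3.46 in the same embryo, against -2.40 to -2.06. In HOM father replicate 1, the embryo with little Tbx4 signal, the Bmp target gene Tbx2 was at -1.75, against -1.25 to -0.89. These genes were chosen after their values were seen. Gdf15, a stress-induced ligand gene, had the largest difference on that list, 1.18 (95% interval 0.35 to 2.01), with overlapping groups and a limma adjusted p of 0.0527.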
